A study of Homo sapiens with 9 samples.

Results

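Interferon-stimulated genes and their regulators were examined in RNA sequencing of human cells labelled as neuroblastoma. These were parental cells and cells labelled for a lower or higher level of the chaperone TRAP-1. The genes were 9 in number, listed by name (STAT2, IRF9, IFIT1, IFIT2, IFIT3, ISG15, MX1, OAS1 and IFI6), and 5 of the 9 had a row among the 22290 genes of the deposited table. No row was found for IRF9, IFIT1, IFIT2 and IFIT3, and these 4 were not analysed here. The question was whether engineering of the cells had left an antiviral trace in their RNA.

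The cells were labelled IMR-32, an established neuroblastoma line, and RNA was read from 3 libraries each of parental cells (labelled WT), cells labelled TRAP-1 knockdown (KD) and cells labelled TRAP-1 overexpression (OE). Total RNA was taken in triplicate, and nothing says that the replicates were separate cultures, so the p-values measure the spread between these libraries, which may be technical. The vector, the route of delivery and any selection were not given in the sources used here for the KD and OE cells, and no group with an empty vector was among the 9 libraries. Delivery of a vector and any change in TRAP-1 therefore cannot be told apart. The values are regularized log2 values (rlog), made by the authors, which are scaled for library size and shrink differences of low genes more, and a gene was called where the adjusted p from limma over all 22290 genes was under 0.05. The methods state 1 read depth for the libraries, and the number of reads that each library reached is not held by rlog values.

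Type I interferons are secreted proteins that bind the receptor IFNAR1/IFNAR2 and, through the kinases JAK1 and TYK2, activate the complex ISGF3, of which STAT2 and IRF9 are parts. ISGF3 binds the interferon-stimulated response element in promoters and switches on genes whose products hold back viruses, such as the IFIT proteins that bind viral RNA, the GTPase MX1, the RNA-sensing enzyme OAS1 and the ubiquitin-like protein ISG15. Foreign nucleic acid in the cytoplasm, including delivered DNA or RNA, is a known trigger of this pathway in many cell types.

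TRAP1 itself was read first, because it checks the labels. Its rlog values were 10.67, 10.66 and 10.65 in the parental libraries, 10.79, 10.79 and 10.83 in those labelled KD and 10.67, 10.63 and 10.74 in those labelled OE. All 3 libraries labelled KD lay above all 3 parental ones, while the libraries labelled OE lay on both sides of them. TRAP1 was 0.14 above parental under the label KD (adjusted p = 1.8e-05 from limma) and 0.018 above it under the label OE (adjusted p = 0.643 from limma). The difference under the label OE turned to -0.012 without OE replicate 3 and, with the medians of 20-Mb stretches of the genome removed, was 0.060 and called (adjusted p = 0.0490 from limma). TRAP1 RNA thus went against the label KD, and in the main fit it was not detectably raised under the label OE. Other annotated genes cover 28.5% of its exonic bases. KD and OE are used below only as the labels of the libraries.

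Markers of the labelled cell type were mixed. The rlog values and sums of all markers below are not scaled to gene length, so they do not rank genes by abundance. Of 15 adrenergic neuroblastoma markers, 10 had a row, and HAND1, DBH, DDC and STMN2 were among those that had none. ISL1 and GATA2 had parental rlog values of 9.37 and 9.27. The values of MYCN (2.52), for which IMR-32 is known, of TH (2.84) and of PHOX2A (1.33) were low, which goes against the label. Summed after return from the log2 scale, the 10 markers gave 1629, 1590 and 1602 in the parental libraries, 1479, 1462 and 1499 in those labelled KD and 1496, 1582 and 1544 in those labelled OE. Among markers of other cells, immune cell markers had a row in 3 of 7 genes, with CD3E, MS4A1 and CD68 among those without one. In parental cells PTPRC was at 2.65 and LYZ, the highest of the 3 in rlog value, at 5.99. Other annotated genes cover 34.7% of the exonic bases of LYZ. The sum of the immune cell markers was 86.0, 86.6 and 84.7 in the parental libraries, 71.7, 72.7 and 70.8 in those labelled KD and 74.0, 75.1 and 81.1 in those labelled OE. It was lower in each engineered library than in each parental one.

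Epithelial, endothelial and mesenchymal genes were read as well. Of 11 epithelial markers 9 had a row (CDH1 and KRT19 did not), led by KRT18 at 12.06 in parental cells, with EPCAM at 2.59, and summed to 6057, 6082 and 6016 in the parental libraries, 6039, 6197 and 6268 in those labelled KD and 5494, 5456 and 5525 in those labelled OE. All 4 endothelial markers had a row, led by PECAM1 at 9.44, with CDH5 at 0.63, and their sums were 1007, 1029 and 1007 (parental), 1126, 1124 and 1097 (KD) and 729.9, 765.2 and 802.0 (OE). Both sums were lowest in the libraries labelled OE. Mesenchymal markers had a row in 6 of 7 genes (THY1 did not), led by PDGFRB at 8.48, with COL3A1 at 1.16, and their sums were 407.3, 416.8 and 433.6 (parental), 408.8, 462.4 and 418.1 (KD) and 442.1, 459.4 and 452.2 (OE). The libraries labelled OE lay above parental in this sum, and those labelled KD overlapped with both. The part of any of these markers in the values below was not tested, and in bulk RNA fewer cells of a type and less RNA per cell cannot be told apart.

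Levels of the 5 genes can be set side by side only per length. Per kb of exonic sequence, the parental rlog level was 8.65 for IFI6, 7.83 for STAT2, 7.26 for ISG15, 2.79 for MX1 and 2.36 for OAS1. These levels lay at the percentiles 82.3, 72.7, 66.6, 28.6 and 24.8 of all genes. Per kb of the canonical transcript, a length chosen after seeing the data, the levels were 8.86 for IFI6, 8.91 for STAT2, 7.71 for ISG15, 5.48 for MX1 and 5.35 for OAS1, at the percentiles 76.6, 77.2, 64.0, 46.4 and 45.4. STAT2 and IFI6 thus changed places with the length used, and MX1 and OAS1 were the lowest on both scales.

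The promoters of the 5 genes are shown because ISGF3 is known to bind a response element there, and the genes can be compared for its letters. RefSeq (GRCh38.p14) gave windows of 300 bases, from 250 before to 50 after the gene start in RefSeq, for 8 of the 9 listed genes, IFIT2 being the one without. Each window was searched on both strands for GAAANNGAAA, the core of the interferon-stimulated response element, and for GAAANGAAA, a shorter spacing that was added after the windows had been seen. The first was in 3.57% of all 34943 promoter windows, the second in 3.12% and either in 6.40%. Capitals mark the matches in the windows of ISG15 (chr1:1013247-1013546, plus strand), MX1 (chr21:41420308-41420607, plus strand, the first of its 3 windows), OAS1 (chr12:112906712-112907011, plus strand) and IFI6 (chr1:27672143-27672442, minus strand).
ISG15: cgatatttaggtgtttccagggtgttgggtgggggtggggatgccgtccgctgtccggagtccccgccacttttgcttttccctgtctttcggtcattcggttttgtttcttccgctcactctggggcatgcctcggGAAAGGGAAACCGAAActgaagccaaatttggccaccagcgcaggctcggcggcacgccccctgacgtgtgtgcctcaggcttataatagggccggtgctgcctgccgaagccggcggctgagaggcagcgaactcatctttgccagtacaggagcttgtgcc
MX1: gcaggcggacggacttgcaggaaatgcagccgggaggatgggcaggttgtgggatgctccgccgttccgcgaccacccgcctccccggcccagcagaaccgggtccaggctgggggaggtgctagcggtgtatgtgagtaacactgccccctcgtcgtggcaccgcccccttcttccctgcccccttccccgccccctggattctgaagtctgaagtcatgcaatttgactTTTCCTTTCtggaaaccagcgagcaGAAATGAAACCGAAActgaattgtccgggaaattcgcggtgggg
OAS1: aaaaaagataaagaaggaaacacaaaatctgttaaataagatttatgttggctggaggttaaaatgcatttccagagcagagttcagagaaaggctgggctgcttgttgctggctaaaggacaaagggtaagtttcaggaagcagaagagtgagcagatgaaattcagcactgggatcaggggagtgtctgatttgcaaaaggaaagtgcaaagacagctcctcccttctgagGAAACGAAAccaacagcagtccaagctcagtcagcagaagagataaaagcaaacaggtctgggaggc
IFI6: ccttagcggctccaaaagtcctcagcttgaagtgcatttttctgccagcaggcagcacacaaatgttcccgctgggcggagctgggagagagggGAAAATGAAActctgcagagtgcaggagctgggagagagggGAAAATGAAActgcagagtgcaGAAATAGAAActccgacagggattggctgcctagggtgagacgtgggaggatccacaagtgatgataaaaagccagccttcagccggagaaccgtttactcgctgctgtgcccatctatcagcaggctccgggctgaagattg
ISG15 held 2 overlapping matches to GAAANNGAAA, which begin 113 and 107 bases before the RefSeq start. The RefSeq starts differ from those of the annotated genes whose coordinates are given below, and that of ISG15 lies well inside the gene. IFI6 held 3, which begin 156, 115 and 93 bases before its RefSeq start. In the window of MX1 that is shown the match to GAAANNGAAA lies after the RefSeq start and shares a GAAA with a match to GAAANGAAA, and a second GAAANGAAA is on the other strand; its other 2 windows held matches too. OAS1 held 1 match, to GAAANGAAA, and STAT2 (chr12:56360058-56360357, minus strand) held none of either. Of the genes without a row, IFIT1 and IFIT3 held matches and IRF9 none. A match is a description of the letters and says nothing of binding in these cells.

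Of the 5 genes with a row, all 5 were called between the libraries labelled KD and parental, where 53.7% of all genes were called. MX1, IFI6 and STAT2 were higher and OAS1 and ISG15 were lower, so the effectors did not move in one direction. Groups of libraries did not overlap in all 5, against 59.2% of all genes. Beside that background, and 71.7% of the 14000 genes whose mean rlog was 5 or more, a call by itself is not particular to these genes. Under the label OE 2 of the 5 were called against parental, STAT2 higher and OAS1 lower, where 34.8% of all genes were called, and 50.3% of the 14000. The same 2 were those without overlap, against 43.2% of all genes. All differences of the 5 genes were under 0.5 in size, a mark that 4.98% of all genes passed in the libraries labelled KD, 0.897% in those labelled OE and 3.56% between these 2 groups. The 2 comparisons share the parental libraries, and their values are given side by side.

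**Figure D1:**
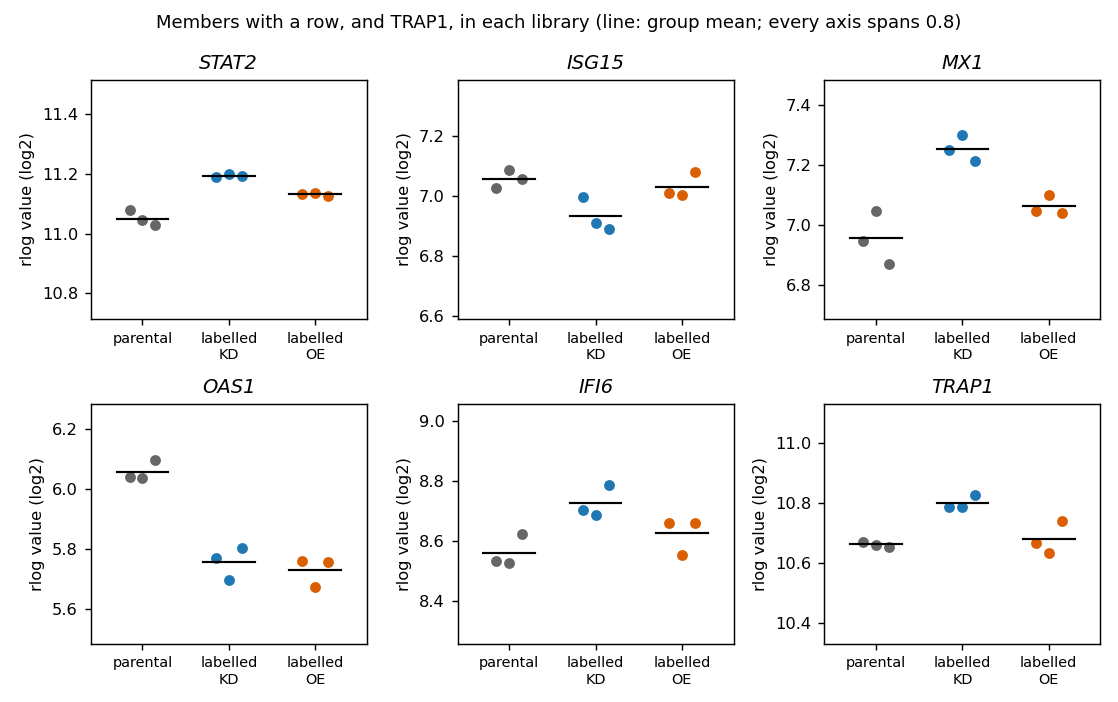
Each point is the rlog value (log2) of 1 library, for the 5 interferon-related genes with a row and for TRAP1, in parental libraries and those labelled KD and OE; lines are group means and every axis spans 0.8. MX1 is highest in the libraries labelled KD (7.21 to 7.30), and OAS1 is highest in the parental ones (6.04 to 6.10).

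Among the ligands, 1 of 21 interferon genes had a row. IFNA1, a type I interferon, had mean rlog values of 1.08 in parental libraries, 1.06 in those labelled KD and 1.07 in those labelled OE. It was not called in any comparison (adjusted p of 0.49, 0.789 and 0.756 from limma). Other annotated genes cover 63.4% of its exonic bases, and differences at so low a level are strongly shrunken in rlog values.

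Of 18 receptors, kinases and transcription factors of the pathway, 15 had a row, IFNAR2, IRF1 and IRF9 being without one. Under the label KD 6 were higher, 2 lower and 7 not called, and under the label OE 4 were higher, 4 lower and 7 not called. IFNGR1, one of the 4 higher under the label OE, lost its call there under 4 alternatives (down to 0.040, adjusted p = 0.316 from limma). With the medians of 20-Mb stretches removed, further genes of the list were called lower under the label KD. These were IFNGR1 (-0.12, adjusted p = 9.2e-04), JAK2 (-0.094, adjusted p = 0.0244) and IRF2 (-0.072, adjusted p = 0.0154, all from limma). No other call of the list under the label KD changed with it. Of all genes 26.9% were higher and 26.9% lower under the label KD, and 16.9% and 18% under the label OE. Low genes are seldom called, and among the 14000 genes of mean rlog 5 or more these shares were 35.6% and 36.2%, and 24% and 26.3%, against 46.2% and 15.4%, and 30.8% and 30.8%, of the 13 list genes at that level. The median difference over the 15 was 0.029 and 0.0087, against -5.1e-04 and 3.9e-04 over all genes. IFNLR1, a subunit of the receptor for type III interferons, had the largest difference under the label KD, 0.65 (adjusted p = 4.04e-16 from limma), and was 0.13 above parental under the label OE (adjusted p = 0.00535 from limma). IFNAR1, a subunit of the type I receptor, was lower by -0.077 in the libraries labelled KD (adjusted p = 0.00454 from limma) and differed by -0.010 in those labelled OE (adjusted p = 0.778 from limma). TYK2, the kinase bound to IFNAR1, was lower in both, by -0.24 (adjusted p = 9.33e-14) and -0.18 (adjusted p = 3.3e-10, both from limma). JAK1 was not called in either.

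STAT2, which carries the activating domain of ISGF3, had rlog values of 11.08, 11.04 and 11.03 in the parental libraries, 11.19, 11.20 and 11.19 in those labelled KD and 11.13, 11.13 and 11.13 in those labelled OE. The groups did not overlap, with the libraries labelled KD highest and those labelled OE between. The gene (ENSG00000170581, GRCh38 chromosome 12 from 56341597 to 56360203, minus strand) rose by 0.14 under the label KD (SE 0.021, adjusted p = 5.14e-07 from limma) and by 0.080 under the label OE (SE 0.021, adjusted p = 0.00258 from limma). Both differences exceed the spread between replicates, of which the largest SD was 0.026 (n = 3). The 46 genes of mean rlog 5 or more that start within 1000 kb of STAT2 had a median difference of 0.086 in the libraries labelled KD and -0.0072 in those labelled OE.

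IRF7, a factor that is itself induced by interferon and drives interferon genes, rose by 0.34 under the label KD (adjusted p = 5.83e-08 from limma) and was lower by -0.16 in those labelled OE (adjusted p = 0.00472 from limma). IRF3, which is present before infection, also differed in sign, by 0.15 (adjusted p = 4.85e-07) and -0.093 (adjusted p = 0.00103, both from limma). STAT3 rose by 0.12 under the label KD (adjusted p = 1.02e-07 from limma) and was not called in those labelled OE (0.0087, adjusted p = 0.745 from limma).

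**Figure D2:**
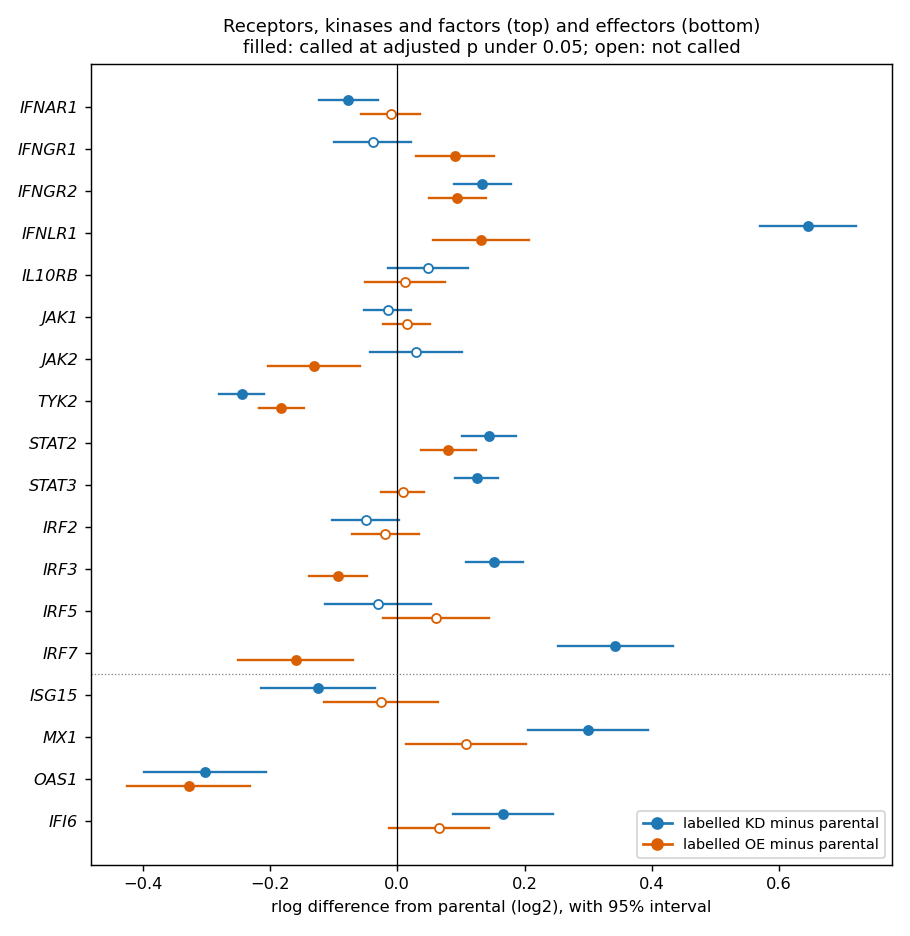
Rlog difference from parental (log2) with its 95% interval from limma, for 14 of the 15 receptors, kinases and factors above the dotted line and 4 effectors below it, in the libraries labelled KD (blue) and OE (orange); filled points were called. IFNLR1 (0.65) stands far from the others in the libraries labelled KD, and JAK1 lies near 0 in both.

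MX1, a GTPase that traps viral ribonucleoproteins, had rlog values of 6.95, 7.05 and 6.87 in the parental libraries, 7.25, 7.30 and 7.21 in those labelled KD and 7.05, 7.10 and 7.04 in those labelled OE. The libraries labelled KD were above all others, and those labelled OE overlapped with parental, where replicate 2 was the highest. The gene (ENSG00000157601, chromosome 21 from 41420020 to 41470071, plus strand) rose by 0.30 under the label KD (SE 0.046, adjusted p = 1.38e-06 from limma). The difference under the label OE was 0.11 (95% interval from 0.014 to 0.20, adjusted p = 0.0704 from limma), which was not called. Without parental replicate 2 this difference was 0.15 and called (adjusted p = 0.0147 from limma), and without parental replicate 3 it was 0.065 (adjusted p = 0.352 from limma). MX2, the neighbouring paralogue, moved the other way in the libraries labelled KD, by -0.11 (adjusted p = 1.31e-05 from limma), and the 5 genes within 1000 kb of MX1 had a median of -0.096.

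IFI6, a small membrane protein induced by type I interferon, had rlog values of 8.53, 8.52 and 8.62 in the parental libraries, 8.70, 8.69 and 8.79 in those labelled KD and 8.66, 8.55 and 8.66 in those labelled OE. All 3 libraries labelled KD lay above all 3 parental ones, whereas those labelled OE overlapped with parental. The gene (ENSG00000126709, chromosome 1 from 27666064 to 27672212, minus strand) rose by 0.17 under the label KD (SE 0.038, adjusted p = 4.1e-04 from limma) and differed by 0.065 in those labelled OE (adjusted p = 0.204 from limma), which without OE replicate 2 was 0.10 (adjusted p = 0.0651 from limma). Other annotated genes cover 23.1% of its exonic bases, and the kit does not mark strand, so that reads from these genes cannot be told apart. The 39 genes near IFI6 had a median difference of -0.067 in the libraries labelled KD.

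OAS1, which makes 2'-5' oligoadenylate on sensing double-stranded RNA, had rlog values of 6.04, 6.04 and 6.10 in the parental libraries, 5.77, 5.70 and 5.80 in those labelled KD and 5.76, 5.67 and 5.76 in those labelled OE. Every engineered library was below every parental library, and the libraries labelled KD and OE overlapped with each other. The gene (ENSG00000089127, chromosome 12 from 112905856 to 112933219, plus strand) was lower under the label KD, by -0.30 (SE 0.047, adjusted p = 1.78e-06 from limma) and under the label OE, by -0.33 (SE 0.047, adjusted p = 1.09e-06 from limma). The widest range of group means among the 5 genes, 0.33, was that of OAS1. The 17 genes near it had medians of -0.029 and -0.0092. Outside the lists, the genes nearest to it in pattern over the 9 libraries were FAM107B, ERCC6, CENPB, ADISSP and TEX30, with root mean square distances of 0.0264 to 0.0354 among 13869 genes.

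The oligoadenylate and RNA decay arm, to which OAS1 belongs, was mostly lower. Of its 7 genes 5 had a row (OAS2 and OAS3 did not). With OAS1 counted, 4 were lower in the libraries labelled KD and 3 in those labelled OE, where 26.9% and 18% of all genes were lower. At a mean rlog of 5 or more, 3 of 4 were lower in each, against 36.2% and 26.3% of the 14000 genes at that level. In these 2 comparisons none was higher by adjusted p from limma, nor at an unadjusted p under 0.05. EIF2AK2, also named PKR, a kinase that stops translation on double-stranded RNA, was lower by -0.068 (adjusted p = 0.00227) and -0.088 (adjusted p = 2.8e-04, both from limma).

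ISG15, a ubiquitin-like protein that is attached to other proteins, had rlog values of 7.03, 7.09 and 7.06 in the parental libraries, 7.0, 6.91 and 6.89 in those labelled KD and 7.01, 7.01 and 7.08 in those labelled OE. The libraries labelled KD were lowest without overlap, by a gap smaller than the spread within a group, and those labelled OE overlapped with the parental ones. The gene (ENSG00000187608, chromosome 1 from 1001138 to 1014540, plus strand) was lower under the label KD, by -0.12 (SE 0.044, adjusted p = 0.0171 from limma) and differed by -0.026 in those labelled OE (adjusted p = 0.714 from limma). The call in the libraries labelled KD was lost without parental replicate 2 (-0.11, adjusted p = 0.0666), KD replicate 2 (-0.11, adjusted p = 0.0599) or KD replicate 3 (-0.10, adjusted p = 0.0840, all from limma).

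The enzymes that attach and remove ISG15 all had a row. Under the label KD, the activating enzyme UBA7 was raised by 0.29 (adjusted p = 2.83e-05 from limma) and the conjugating enzyme UBE2L6 by 0.44 (adjusted p = 5.31e-16 from limma). USP18, which removes ISG15 and also dampens the receptor, was lower by -0.31 (adjusted p = 1.85e-07 from limma). All 4 of these enzymes were called under the label KD, where 53.7% of all genes were. Under the label OE UBE2L6 alone of them was called, where 34.8% of all genes were, higher by 0.093 (adjusted p = 0.00435 from limma); without parental replicate 2 UBA7 was called too (0.16, adjusted p = 0.0319 from limma). The ligase HERC5 was 0.18 above parental under the label KD (adjusted p = 4.0e-04 from limma), but it lies on chromosome 4 in a 20-Mb stretch whose 56 genes had a median of 0.39, and after that median was removed it was lower by -0.21.

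Beyond the 9 genes, 47 of 53 other interferon-stimulated genes had a row (IFITM1, IFITM3, OAS2, OAS3, EPSTI1 and TRIM22 did not). With the label KD 22 were higher (46.8%), 14 lower (29.8%) and 11 not called, where 26.9% of all genes were higher and 26.9% lower, with a median of 0.051, against -5.1e-04 over all genes. With the label OE 11 were higher (23.4%), 13 lower (27.7%) and 23 not called, where 16.9% and 18% of all genes were, with a median of -0.015, against 3.9e-04. Genes known to respond to interferon were thus found on both sides in each comparison. At a mean rlog of 5 or more, 46.5% of 43 list genes were higher and 30.2% lower under the label KD, against 35.6% and 36.2% of the 14000 genes at that level, and 25.6% and 30.2% under the label OE, against 24% and 26.3%. IFIT5, the gene of the IFIT family that had a row, was at 10.64, 10.62 and 10.60 in the 3 groups and was not called in any comparison (adjusted p of 0.502, 0.178 and 0.48 from limma).

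The largest increases in the libraries labelled KD were those of IFITM2, which blocks virus entry (1.37, adjusted p = 7.88e-25), ISG20, an RNA exonuclease (1.0, adjusted p = 2.5e-27), and BST2, which tethers budding viruses (0.74, adjusted p = 1.79e-15, all from limma). These 3 were the ones of the 47 past 0.5. The largest decreases were those of TRIM14 (-0.44), LY6E (-0.36) and USP18 (-0.31), with adjusted p of 2.8e-16, 2.17e-18 and 1.85e-07 from limma. The largest increases under the label OE were those of IFITM2 (0.42, adjusted p = 3.65e-11), the DNA sensor IFI16 (0.41, adjusted p = 8.53e-18) and BST2 (0.33, adjusted p = 3.65e-07), and the largest decreases those of IFI44 (-0.39, adjusted p = 6.85e-11), SAMD9 (-0.25, adjusted p = 1.12e-07) and PARP12 (-0.22, adjusted p = 1.04e-08, all from limma). Some of these genes lie where neighbours were lower too. The median of the genes within 1000 kb in the libraries labelled KD was -0.32 for TRIM14 and -0.17 for LY6E, and 0.020 for IFITM2, 0.096 for ISG20 and 0.040 for BST2.

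**Figure D3:**
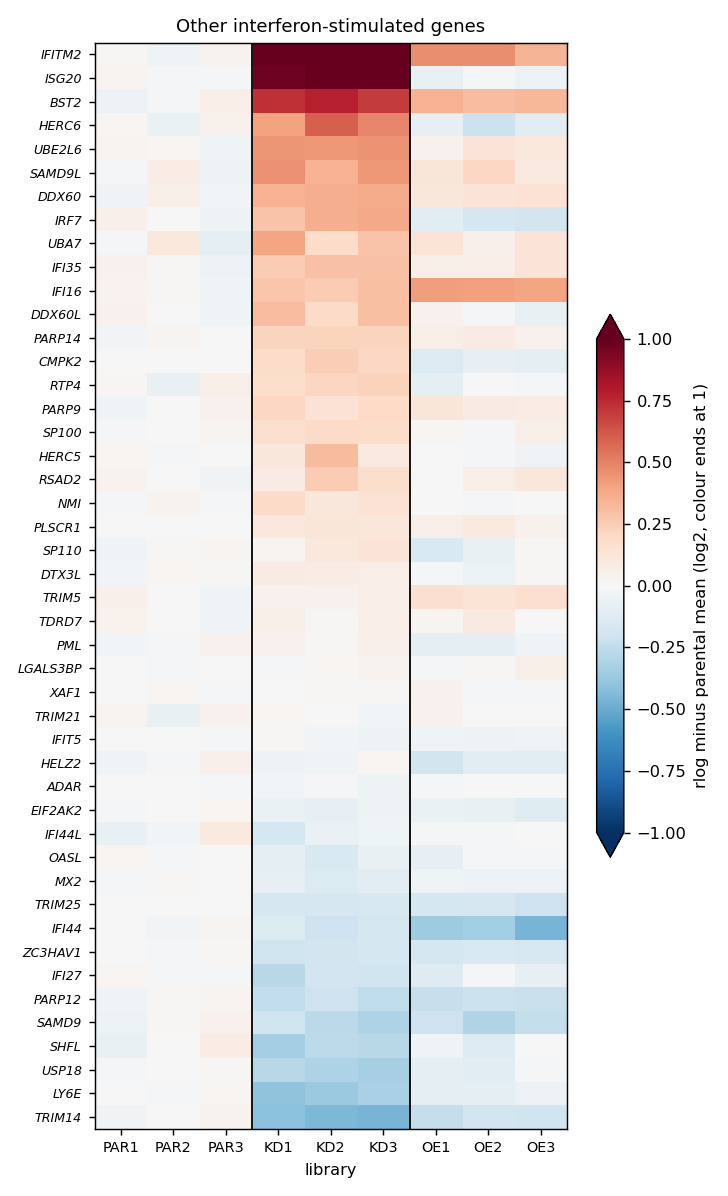
Rlog values minus the parental mean (log2) of 46 of the 47 other interferon-stimulated genes in the 9 libraries, ordered by the difference in the libraries labelled KD; red is higher, blue lower, and the colour ends at 1. IFITM2 (1.37), ISG20 (1.0) and BST2 (0.74) lead in the libraries labelled KD, and IFI44 (-0.39) is lowest in those labelled OE.

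Sensors of foreign nucleic acid and their adaptors stand upstream of interferon. Of 20 genes 17 had a row (TLR8, TLR9 and CGAS did not), with 3 higher (17.6%) and 8 lower (47.1%) under the label KD, against 26.9% and 26.9% of all genes, and 2 higher (11.8%) and 6 lower (35.3%) under the label OE, against 16.9% and 18%. At a mean rlog of 5 or more, 7 of 15 were lower under the label KD (46.7%, against 36.2% of the 14000 genes) and 6 under the label OE (40%, against 26.3%). Of the 8 lower under the label KD, MAVS lost its call with the medians of 20-Mb stretches removed (-0.015, adjusted p = 0.479 from limma) and TICAM1 under 4 alternatives (down to -0.040, adjusted p = 0.282 from limma). DHX58, a relative of RIG-I, was raised by 0.34 in the libraries labelled KD (adjusted p = 4.02e-09 from limma) and the adaptor MYD88 was lower by -0.47 (adjusted p = 2.05e-17 from limma), where the 19 genes near MYD88 had a median of -0.20. AIM2, a DNA sensor, was raised by 0.41 in the libraries labelled OE (adjusted p = 4.06e-14 from limma). MAVS, the adaptor of RIG-I, was lower there by -0.21 (adjusted p = 2.53e-11 from limma). In these libraries the 8 genes near AIM2 had a median of 0.11. The 20-Mb stretch that holds MAVS had a median of -0.12 over 89 genes. RIGI itself was lower by -0.20 in the libraries labelled OE (adjusted p = 9.66e-05 from limma) and differed by 0.0011 in those labelled KD (adjusted p = 0.985 from limma). Other annotated genes cover 43.2% of the exonic bases of RIGI.

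Among genes that lean toward interferon gamma, 6 of 14 had a row, of which 2 were higher and 2 lower under the label KD, where 26.9% of all genes were higher and 26.9% lower, and 1 higher and 2 lower under the label OE, where 16.9% and 18% were. GBP1 and GBP2, which coat intracellular pathogens, were higher in the libraries labelled KD by 0.50 (adjusted p = 1.97e-14) and 0.43 (adjusted p = 6.84e-17, both from limma), and GBP2 also in those labelled OE by 0.21 (adjusted p = 4.64e-09 from limma). CIITA, the regulator of MHC class II genes, was lower in both, by -0.29 (adjusted p = 2.88e-16) and -0.38 (adjusted p = 8.74e-19, both from limma), with 21.6% of its exonic bases under other annotated genes. NLRC5, a regulator of MHC class I genes, was lower in both too, by -0.16 (adjusted p = 9.15e-05) and -0.21 (adjusted p = 5.0e-06, both from limma). Attenuators of the pathway were called in both directions. Of 10 genes 9 had a row (SOCS1 did not), with 2 higher and 2 lower under the label KD (22.2% each, against 26.9% each of all genes), and 1 higher, SOCS3 (0.17, adjusted p = 2.32e-05 from limma), and 2 lower in those labelled OE (11.1% and 22.2%, against 16.9% and 18%).

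**Figure D4:**
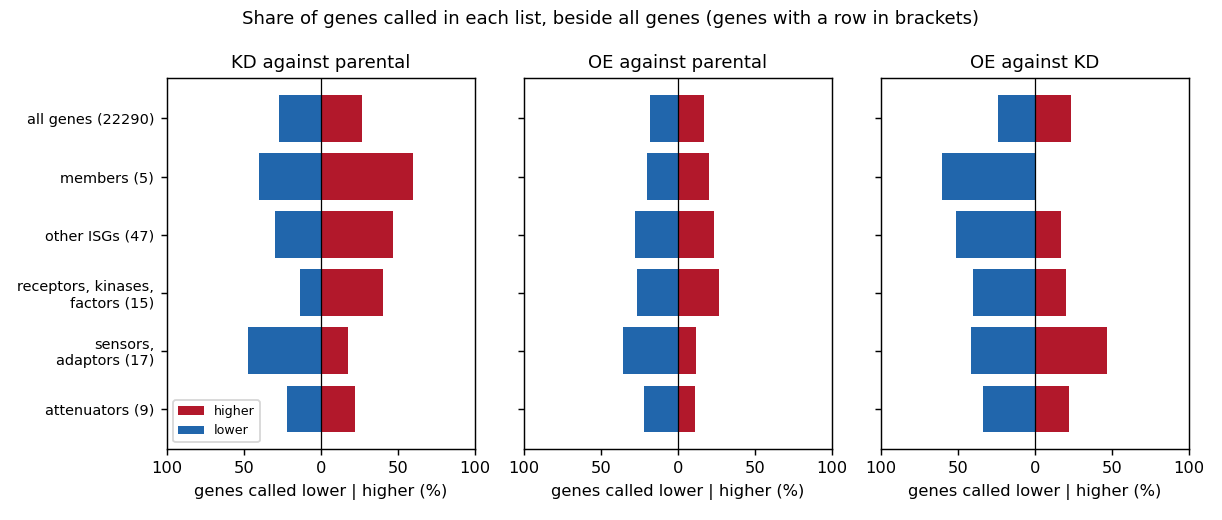
Share of genes (%) called higher (red, to the right) and lower (blue, to the left) in each list, beside all 22290 genes, in the 3 comparisons; the number of genes with a row is in brackets. In the libraries labelled KD 46.8% of the 47 other interferon-stimulated genes were higher, against 26.9% of all genes; at a mean rlog of 5 or more the shares were 46.5% and 35.6%.

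The libraries labelled OE and KD were also compared directly, since calls against the shared parental libraries do not show that these 2 groups differ. Of the 5 genes 3 were lower in the libraries labelled OE and 0 higher, where 47.3% of all genes were called, and 64.1% of the 14000. In 4 of the 5 the libraries of the groups did not overlap, against 54.1% of all genes, and at an unadjusted p under 0.05 from limma 1, ISG15, was higher. MX1 differed by -0.19 (adjusted p = 8.1e-04 from limma), STAT2 by -0.063 (adjusted p = 0.0127 from limma) and IFI6 by -0.10 (adjusted p = 0.0298 from limma). The 46 genes near STAT2 had a median of -0.058 here, and with the medians of 20-Mb stretches removed its call was lost (-0.027, adjusted p = 0.281 from limma). OAS1 was not called (-0.026, 95% interval from -0.12 to 0.071, adjusted p = 0.699 from limma). The call of IFI6 was lost without KD replicate 3 (-0.070, adjusted p = 0.186) or OE replicate 2 (-0.066, adjusted p = 0.215), and ISG15 (0.099, adjusted p = 0.0646) was called without KD replicate 1 (0.13, adjusted p = 0.0274, all from limma). Of the 47 other interferon-stimulated genes 8 were higher and 24 lower, where 23.5% and 23.8% of all genes were. At a mean rlog of 5 or more, 18.6% of 43 list genes were higher and 51.2% lower, against 31.5% and 32.6% of the 14000. The lowest of the 47 were ISG20 (-1.05), IFITM2 (-0.94) and HERC6 (-0.63), with adjusted p of 8.86e-28, 2.54e-20 and 4.78e-13 from limma. The 12 genes near HERC6 had a median of -0.54.

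The 5 genes lie on 3 chromosomes, with different neighbours. Under the label KD the median of the neighbours was 0.086 for STAT2, beside 0.14 for the gene itself. It had the sign of the gene but lay near 0 for OAS1 (-0.029, gene -0.30) and ISG15 (-0.0056 over 47 genes, gene -0.12). For MX1 and IFI6 it had the other sign.

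**Figure D5:**
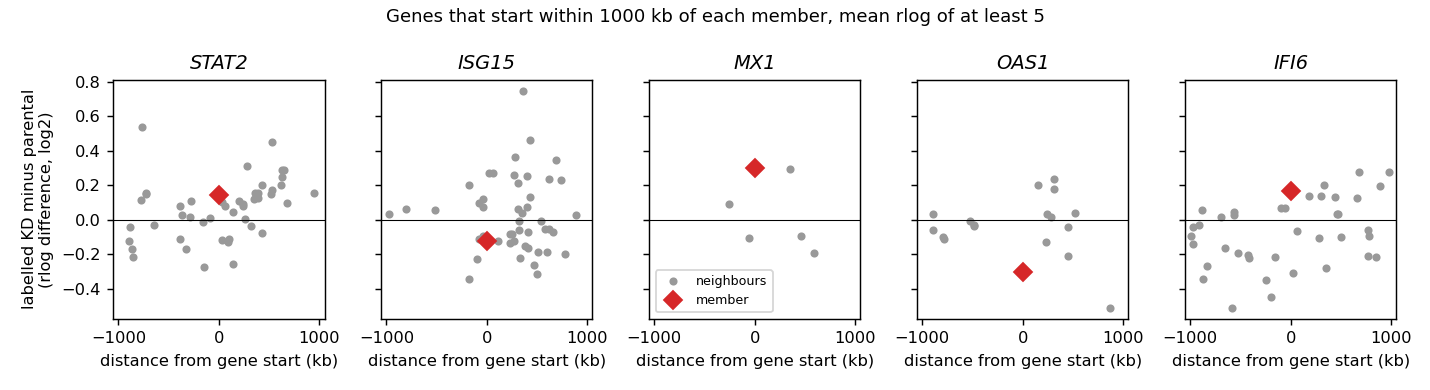
Rlog difference of the libraries labelled KD from parental (log2) for each of the 5 genes (red diamond) and for genes of mean rlog 5 or more that start within 1000 kb (grey), against distance from the start of the gene in kb along its own strand. MX1 (0.30) is above 5 neighbours with a median of -0.096, and STAT2 (0.14) lies among 46 neighbours with a median of 0.086.

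Promoter letters were read against the calls once more over the whole table. Of 13229 genes with a row and a window, 941 held either motif, and in the libraries labelled KD 33.8% of these were higher and 29.5% lower, against 30.2% and 32.1% of all 13229. Under the label OE the shares were 20.8% and 21.0%, against 19.96% and 22.9%. Among other interferon-stimulated genes with a window, 15 of the 30 with a motif were higher in the libraries labelled KD, and 4 of the 8 without one. The shares are given as a description, with no test.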

How the data were processed

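RNA from 9 libraries (3 parental, 3 labelled KD, 3 labelled OE) was prepared with an unstranded kit and sequenced as paired reads. The deposited values are log2 values made by the authors, who trimmed reads with cutadapt (quality under 20, length under 36), aligned with hisat2 to GRCh38, assigned reads to genes with featureCounts, removed genes with a total count under 10 and applied the rlog transformation of DESeq2. Versions and annotation were not given in the sources used here. Of 22290 gene IDs, 22195 matched a symbol and position in GENCODE. Empty columns (3) were not used. Group means were compared with limma 3.58.1 in R 4.3.3 over all 9 libraries, with the variance trended on mean level and Benjamini-Hochberg adjustment over all genes. The fit was tested on simulated data. The rule for names, not all of which are printed, took the 9 genes, TRAP1, the receptors, kinases and factors, IFIT5, the markers, the 3 largest called differences of each list in each direction and the 5 genes nearest in pattern to OAS1; MX2 was named after its values were seen. Some genes of the lists are counted but not reported here by name or drawn. Members and lists were chosen with earlier results of these data known. Library pairs of one group differed by a root mean square of 0.0582 to 0.0630, and those of different groups by 0.137 to 0.255. Length of the canonical transcript was an alternative added after seeing the data. Other alternatives covered the variance trend, a robust spread, a level filter, 2 scalings, a replicate block, 6 libraries, 20-Mb block medians, a size threshold and each library left out.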

Additional observations from a re-analysis of the deposited data

Results flagged for a closer look

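For 3 of the 5 interferon-related genes with a row, the libraries labelled OE and KD differed from each other by a direct test. STAT2 differed by -0.063, MX1 by -0.19 and IFI6 by -0.10, each lower in the libraries labelled OE. MX1 kept this call under each alternative run apart from the size threshold, STAT2 lost it with 20-Mb block medians removed (adjusted p = 0.281 from limma), and IFI6 lost it without the variance trend, under quantile normalisation and without KD replicate 3 or OE replicate 2. In MX1 and IFI6 the libraries labelled KD were called against parental and those labelled OE were not, but MX1 in the latter was called without parental replicate 2 (adjusted p = 0.0147) and with block medians removed (adjusted p = 0.00509, both from limma). No cause was tested.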

How the results depend on the processing

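The 5 genes kept their direction in each comparison where they were called, under each alternative run. A required difference over 0.5 left 0, 0 and 0 of the 5 genes called in KD against parental, OE against parental and OE against KD, 3, 0 and 4 of the other interferon-stimulated genes, and 1110, 200 and 793 of all genes, by construction of the threshold. With libraries left out in turn, the counts of the 5 genes were 4 to 5, 2 to 3 and 2 to 4. Removal of 20-Mb block medians reversed JAK2 (-0.094) and HERC5 (-0.21) in KD against parental, LY6E (0.0035) in OE against parental, and TRIM14 (-0.024), HERC5 (0.25) and PTPN1 (0.018) in OE against KD, and the cause was not tested. Under it MX1 was called in OE against parental (0.16, adjusted p = 0.00509 from limma) and STAT2 was no longer called in OE against KD (-0.027, adjusted p = 0.281 from limma), against adjusted p of 0.0147 to 0.352 for MX1 and 0.00549 to 0.0482 for STAT2 under the others. TRAP1 in OE against parental was called under it too (0.060, with an adjusted p of 0.0490, which was 0.277 to 0.782 under the other settings) and was -0.012 without OE replicate 3. IFI6 in OE against KD was also lost without the variance trend (adjusted p = 0.0635) and under quantile normalisation (adjusted p = 0.0775). ISG15 in OE against KD was called, as higher, without the trend (adjusted p = 0.0301) and with block medians removed (0.12, adjusted p = 0.0287, both from limma). Among list genes chosen by the rule for names, calls counted in the report were also lost under at least 1 alternative for MAVS, TICAM1 and OASL in KD against parental, IFNGR1 and HERC6 in OE against parental and UBA7 in OE against KD. A replicate block called 5, 2 and 3 of the 5 genes and 12015, 7854 and 10623 of all genes, and equal numbers did not pair the libraries (correlations of -0.071 to 0.14). The reads reached by each library are not known here, and differences of low genes such as IFNA1 are shrunken.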
